A study of Sus scrofa domesticus with 2 samples.

Results

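Linker-histone-high cells are cultured pig lung endothelial cells (ECs) that were chosen by the share of their transcripts coming from HIST1H1D and HIST1H1E, the genes of the linker histones H1.3 and H1.4. The library of cultured lung ECs held 5946 cells. Cells were kept if they had over 200 but under 5000 detected genes, under 30% of transcripts from 13 mitochondrial genes, at least 3 transcripts of the EC gene PECAM1 and at most 2 of the collagen genes COL1A1 and COL1A2 together. Transcripts were counted by unique molecular identifiers (UMIs), tags that mark single captured molecules. Of the 5169 kept cells, the 12% with the highest share of UMIs from HIST1H1D and HIST1H1E were taken, which gave 620 linker-histone-high cells. The other 4549 kept cells served for comparison. Both libraries of the series held 7131 cells in all.

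The study cultured primary ECs from pig lung and pig aorta, 1 library of each (Lung_EC and Aorta_EC), and profiled them by droplet 3′ single-cell RNA sequencing with v3 chemistry. Lung cells came from 1 leaf of a perfused lung digested with collagenase, and aorta cells from a digested stretch of vessel near to the lung. Both were grown in DMEM with fetal calf serum, and no treatment or genetic change was named for either culture. For the pig tissues taken for single-cell sequencing, the methods name a cross of the Landrace, Large White and Duroc breeds at an age of 6 months, without saying that the cultured cells came from such animals. The number and sex of the animals behind these cultures are not given in the sources used here. With 1 library a condition, no test was made, since cells are not replicates. A level is given as the UMIs of a gene per 1000000 UMIs (CPM) in all cells of a set pooled. Intervals are at 95%, by the exact Poisson method for levels and the Clopper-Pearson method for shares of cells, and they express counting error only. A gene is called at a fold of 1.5 or more between the CPM values of linker-histone-high and other kept cells, among genes at 10 CPM or more over all kept cells.

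Histones package DNA into nucleosomes, and linker histones such as H1.3 and H1.4 bind where DNA enters and leaves the nucleosome. Most histone genes are replication-dependent: cells transcribe them in S phase, when new DNA must be packaged, and the transcripts decay when DNA synthesis ends. These transcripts usually end in a conserved stem-loop that is bound by SLBP (stem-loop binding protein), not in a poly(A) tail, while replacement histones such as H2A.Z are made from polyadenylated transcripts through the whole cell cycle. The libraries were made from poly(A) RNA, so the counts of replication-dependent histone genes rest on whichever of their transcripts were primed in that protocol, and how large that part is was not tested.

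The stem-loop could be read from the genome for histone genes of the pig, and is shown as the usual end of replication-dependent histone transcripts. Whether the molecules counted here ended in it was not tested. RefSeq has no entry under the symbols HIST1H1D or HIST1H1E on Sscrofa11.1. The entry LOC595122, described as histone H1.3-like protein, lies on the minus strand of chromosome 7, and its stem-loop at chr7:20881591-20881606 starts 36 bases after the end of the coding sequence. The other 3 are from LOC574051 (histone H1.2-like protein, minus strand, chr7:20743668-20743683), HIST1H3E (a core histone H3 gene, minus strand, chr7:20854705-20854720) and HIST1H2BD (a core histone H2B gene, plus strand, chr7:20821553-20821568). Each is written 5′ to 3′ on the strand of the gene. Capitals mark the 16 bases of the stem-loop, an inverted repeat of 6 bases on either side of a loop of 4 bases.
LOC595122: ctaaaGGCTCTTTTCAGAGCCaccca
LOC574051: aaaaaGGCTCTTTTCAGAGCCaccac
HIST1H3E: ccaaaGGCTCTTTTCAGAGCCaacca
HIST1H2BD: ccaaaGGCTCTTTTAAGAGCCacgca
The stem is identical in all 4 genes. In the 100 bases after the coding end of the replacement histone genes H2AFY, H2AFZ and H3F3A, no inverted repeat of this form beginning with GG was found.

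The cells were chosen on very few molecules. Linker-histone-high cells held 1 to 16 UMIs of HIST1H1D and HIST1H1E, with a median of 5, and their share of all UMIs had a median of 0.0407% and a highest value of 0.162%. Just inside the threshold, the last 3 cells had shares of 0.02634%, 0.02629% and 0.02628%, from 2 or 3 UMIs each. Just outside it, the next 3 cells had 0.02626%, 0.02625% and 0.02619%, also from 2 or 3 UMIs. The cells on both sides of the threshold thus held the same small numbers of these UMIs. In all, 52 linker-histone-high cells had fewer than 3 UMIs of these genes, 483 had 3 to 7, and 85 had 8 or more. Among the other kept cells, 3172 had none and 123 had 3 or more. Both genes were seen in 477 linker-histone-high cells (76.9%), HIST1H1D alone in 112 and HIST1H1E alone in 31. By the rule itself, HIST1H1D stood at 300.0 CPM in the chosen cells and 26.4 CPM in the others, and HIST1H1E at 146 and 17.9 CPM, from which nothing is read. These 2 genes were left out of every comparison of chosen and other cells that follows. They return where 1 of them chose the cells and the other was read, and as a description in ranges of the cell cycle and in the cells left out.

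Each linker histone gene could be read in cells that only the other had chosen. The 620 kept cells with the highest share of HIST1H1D alone had HIST1H1E at 99.2 CPM (interval 92.0 to 107), 3.92-fold above the 25.3 CPM (23.9 to 26.8) of the remaining cells. The 620 cells highest in HIST1H1E alone had HIST1H1D at 163 CPM (153 to 173), 3.25-fold above 50.1 CPM (48.05 to 52.2). Cells chosen by 1 gene were thus also high in the other. Of the 2 sets, 494 and 341 cells, respectively, were among the linker-histone-high cells.

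Linker-histone-high cells were deeper than the others. Their median was 11462 UMIs and 3333 detected genes per cell, against 9207 UMIs and 2846 genes, and their median mitochondrial share was 4.68% against 5.49%. The libraries shared 5 cell barcodes, and 1 of them was in a linker-histone-high cell. No doublet caller was used. With the 5% of kept cells with most UMIs left out, 311 genes were called higher and 112 lower. With every cell thinned to 6300 UMIs before the choice was made, 290 were called higher and 123 lower. With the other cells weighted to the same depth classes, 217 were called higher and 89 lower. These stand beside the counts of 288 and 89 given below, and what part depth has in the differences was not tested further.

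The chosen cells carried the transcripts of ECs. VE-cadherin (CDH5), the junction protein of ECs, stood at 144 CPM against 159 CPM in the other cells. ICAM2, an adhesion protein of ECs, stood at 350.1 against 336 CPM, ECSCR, a cell surface sialomucin of ECs, at 537 against 638 CPM, and the angiogenic factor EGFL7 at 297 against 331 CPM. Other EC genes were close to absent in both sets: VWF, the von Willebrand factor, had 4 UMIs in the chosen cells (0.562 CPM against 0.383 CPM), and the VEGF receptor gene KDR had 7 (0.984 against 1.89 CPM). Apart from TAGLN, an actin-binding protein of smooth muscle, and FBLN1, a matrix gene, markers of other cell types were low. Of 11 immune genes, 4 were at 0 in linker-histone-high cells, PTPRC and CD3E among them, and the list summed to 5.48 CPM against 9.76 CPM. Of 6 epithelial genes, 4 were at 0, with sums of 0.281 and 0.879 CPM. Fibroblast genes outside the rule summed to 81.9 and 77.0 CPM, most of it from FBLN1 at 78.0 and 72.1 CPM, and DCN and LUM were at 0. Of 8 mural genes, TAGLN stood at 1017 against 949 CPM, above each EC gene named here, while RGS5 was at 0 and the other 6 summed to under 10 CPM. WT1 and IGFBP5, which mark mesothelial cells, summed to 2.67 and 2.14 CPM.

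Of the markers that came with the name of these cells, which were picked from an earlier reading of the same data, the 3 not used by the rule were higher in them. TK1, the thymidine kinase that feeds DNA synthesis, stood at 167 CPM (interval 158 to 177) against 66.5 CPM, 2.52-fold. CLSPN, which encodes claspin at the replication fork, stood at 104 against 44.4 CPM, 2.33-fold, and BRCA1, a recombination repair gene, at 89.96 against 39.9 CPM, 2.26-fold. A TK1 transcript was found in 80.8% of linker-histone-high cells (77.5 to 83.8), 37.9% of the other cells and 13.9% of the 1833 cells low in both G1/S and G2 or mitosis transcripts. The last of these, whose median was 8945 UMIs, gives the level at which such a transcript turns up in a cell that shows little sign of cycling. At a depth of 6300 UMIs in each cell, the shares for TK1 were 63.8%, 29.4% and 10.0%. Not every chosen cell held a TK1 transcript.

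Of 7387 genes at 10 CPM or more, 288 were called higher in linker-histone-high cells, 3.90% of those tested, and 89 were called lower, 1.20%. The median fold over all of them was 1.00. Of the 288 genes, 26 were under 10 CPM in the other cells and reached the minimum only through the linker-histone-high cells, so that the minimum itself required them to be higher there. Genes of DNA replication, chromatin and chromosome condensation were higher. The 15 genes with the highest folds included 3 core histone genes, and another 8 were on lists of cell cycle genes. EC genes and those for inflammatory mediators were mostly near 1-fold, with SOX18, GJA5 and SLPI among the exceptions.

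Core histone genes had some of the highest folds. The H2A gene H2AC20 stood at 158 CPM (interval 149 to 167) in linker-histone-high cells and 27.6 CPM (26.1 to 29.2) in the others, a 5.71-fold difference, and a transcript of it was found in 73.5% and 17.5% of cells. In the cells low in cycle transcripts, 10.4% had one. HIST1H2AC, another H2A gene, stood at 37.8 CPM (33.4 to 42.6) against 6.77 CPM, 5.59-fold. H2AC11 stood at 34.3 CPM (30.1 to 38.9) against 8.55 CPM, 4.01-fold. Of 12 histone genes outside the rule, these 3 reached 10 CPM over all kept cells and all 3 were called higher. HIST1H2AC and H2AC11 reached 10 CPM only through the linker-histone-high cells, which left H2AC20 as the 1 histone gene whose call the minimum did not favour. Another 2, HIST1H1T and the testis histone gene HIST1H2BA, had no UMI in any kept cell. The other 7 were seen on few molecules. HIST1H2AJ had 68 UMIs in the chosen cells and 51 in the others, which gave 9.56 and 1.15 CPM, and HIST2H2AB had 22 and 15, which gave 3.09 and 0.338 CPM. HIST1H2BB stood at 5.20 against 2.35 CPM, HIST1H2BN at 10.5 against 6.52 CPM, and HIST1H3E at 2.11 against 0.902 CPM. HIST3H2A had 8 UMIs in linker-histone-high cells, and its intervals in the 2 sets overlapped. HIST1H2BD had none, which allows a level of up to 0.422 CPM, against 0.158 CPM in the other cells. Histone genes of the cluster are nearly alike in sequence, and the split of reads between them is uncertain.

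**Figure D1:**
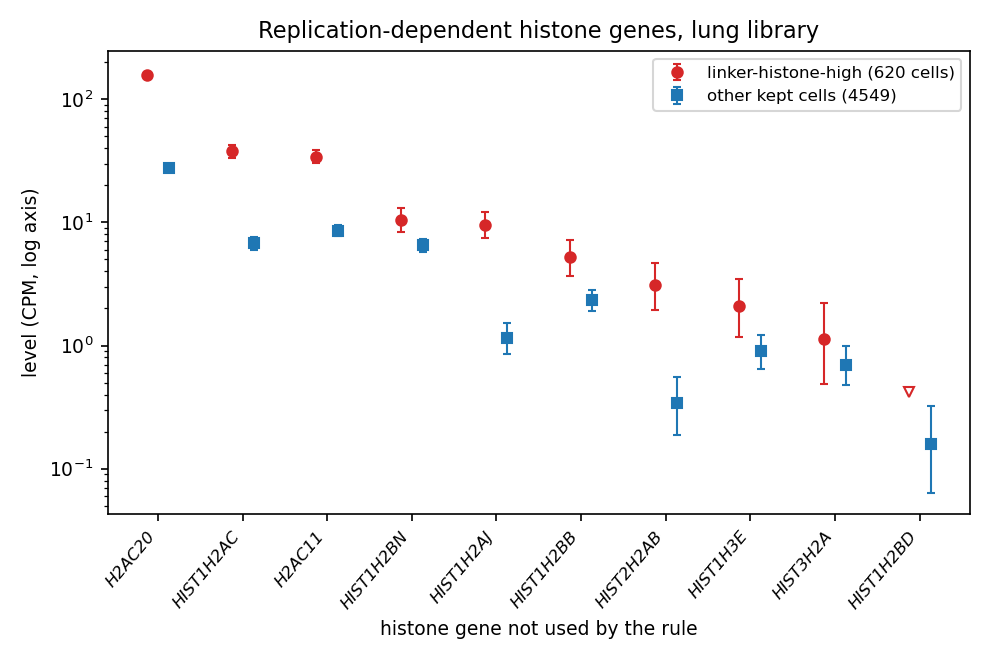
Level in CPM (log axis) of the 10 histone genes with any UMI that the rule did not use, in the 620 linker-histone-high cells (circles) and the 4549 other kept cells (squares) of the lung library. Bars are exact Poisson 95% intervals, and the open triangle is the limit that a count of 0 allows (3 counts). The H2A genes H2AC20, HIST1H2AC, H2AC11, HIST1H2AJ and HIST2H2AB lie furthest apart between the sets.

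Replacement histones, whose transcripts do not depend on replication, differed less, and summed to 3156 CPM in linker-histone-high cells against 2718 CPM in the others. None of the 6 tested was called, and their folds ran from 0.83 to 1.26 with a median of 1.08. H2AFZ, the gene of H2A.Z, was the most abundant at 2007 CPM against 1588 CPM, 1.26-fold. H3F3A, a gene of histone H3.3, stood at 489 against 499 CPM. Of 9 genes for the processing of histone transcripts, 1 was called higher. This was CASP8AP2 (FLASH), a component of histone locus bodies, at 56.2 against 36.6 CPM, 1.54-fold. SLBP stood at 124 against 90.5 CPM, 1.37-fold, and NPAT, which activates histone gene transcription, at 18.4 against 16.3 CPM. The list's median fold was 1.18.

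Genes that license and start DNA replication were higher as a group: 18 of 19 G1/S genes tested were called, with a median fold of 1.91. The repressor of late S phase transcription E2F8 had the highest fold of them, at 41.0 CPM (interval 36.5 to 46.0) against 10.0 CPM, 4.10-fold. It was followed by the initiation factor MCM10 at 49.6 against 21.9 CPM, CDC45, a subunit of the replicative helicase, at 61.3 against 27.8 CPM, and ORC1, the largest subunit of the origin recognition complex, at 52.3 against 23.8 CPM. The helicase genes MCM2 to MCM7 lay between 1.60-fold (MCM6, 104 against 65.1 CPM) and 2.02-fold (MCM2, 57.6 against 28.6 CPM). The cyclin E genes, which act at entry into S phase, were among the lowest, with CCNE2 at 19.0 against 11.2 CPM and CCNE1 at 16.6 against 11.7 CPM, the 1 gene of the list below 1.5-fold.

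At the replication fork, 18 of 23 genes were called higher, with a median fold of 1.98. DNA2, a nuclease of Okazaki fragment processing, stood at 26.7 CPM (interval 23.0 to 30.8) against 7.78 CPM, 3.43-fold. ESCO2, which acetylates cohesin behind the fork, stood at 32.8 CPM (28.7 to 37.2) against 9.56 CPM, also 3.43-fold. Both were under 10 CPM in the other cells and reached the minimum only through the chosen ones, and without the 3 fork genes of this kind 15 of 20 were called. PCNA, the sliding clamp, was the most abundant of the called fork genes, at 216 against 88.6 CPM, 2.44-fold. RFC2, a subunit of the clamp loader, stood at 229 against 155 CPM, 1.48-fold, below the limit. The lowest folds were those of RPA1, RPA3 and RNASEH2A, which lay between 1.29 and 1.34. Of 12 genes of nucleotide supply, 4 were called higher, TK1 among them, with a median fold of 1.35, and the thymidylate synthase gene TYMS stood at 204 against 163 CPM, 1.25-fold. Of 13 genes of chromatin assembly, 8 were called higher, with a median fold of 1.65, or 7 of 12 without the 1 gene under 10 CPM in the other cells. The highest of these were the chromatin ATPase gene ATAD2 at 171 against 72.2 CPM and UHRF1, which brings the maintenance methylase to new DNA, at 62.0 against 28.6 CPM, while the methylase DNMT1 itself stood at 219 against 133 CPM.

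Recombination repair and checkpoint genes followed the same direction, with 15 of 18 called higher and a median fold of 1.94. The exonuclease gene EXO1 stood at 24.3 against 8.39 CPM, 2.90-fold, and BRCA2, a recombination mediator, at 35.4 against 17.0 CPM. EXO1 was 1 of 3 genes of the list under 10 CPM in the other cells, and without them 12 of 15 were called. At the other end of the list, RBBP8, which starts the resection of breaks, was 1.18-fold higher.

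Genes of G2 and of chromosome condensation were higher to a like extent, with 23 of 25 called and a median fold of 2.02. TOP2A, the topoisomerase that untangles sister chromatids, was the most abundant gene of the list, at 500.1 CPM (interval 484 to 517) against 161 CPM, 3.11-fold. CDK1, the kinase that drives entry into mitosis, stood at 121 CPM (113 to 129) against 39.1 CPM, 3.08-fold. CKAP2L, a spindle protein, stood at 41.2 against 10.4 CPM, 3.97-fold, and the condensin subunit NCAPH at 54.4 against 15.7 CPM, 3.46-fold. CENPF, a kinetochore protein that accumulates in G2, stood at 367 against 150 CPM. The list's lowest fold was that of CENPE, a kinetochore motor, at 149 against 109 CPM, 1.36-fold.

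The genes of mitosis were divided. Of 19 tested, 13 were called higher, with a median fold of 1.83. AURKB, the kinase of the chromosomal passenger complex, stood at 77.9 CPM (interval 71.5 to 84.6) against 23.6 CPM, 3.29-fold, and INCENP, its scaffold, which is on no list, at 25.9 against 8.46 CPM, 3.06-fold. In contrast, CDC20, which activates the anaphase promoting complex, stood at 82.1 against 81.4 CPM, 1.01-fold. Cyclin B1 (CCNB1) stood at 91.1 against 73.8 CPM, 1.23-fold, and the late mitotic kinesin gene KIF20A at 28.4 against 32.3 CPM, 0.88-fold. FBXO5 (EMI1), an inhibitor of the anaphase promoting complex that is made in S and G2, was on no list. Among the genes tested that have a symbol it had the third highest fold: 66.9 CPM (61.0 to 73.2) against 14.7 CPM, 4.55-fold. It was seen in 49.0% of linker-histone-high cells, 10.8% of the others and 1.04% of the cells low in cycle transcripts. Of the remaining genes with the highest folds, FAM83D, which brings casein kinase to the spindle, stood at 30.1 against 9.52 CPM, and CDCA2, which brings a phosphatase to chromosomes, at 29.7 against 9.67 CPM. INCENP, FAM83D and CDCA2 also reached the minimum only through the linker-histone-high cells.

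Genes that respond to mitogens in G1 or to arrest gave few calls. Of 5 G1 mitogen genes none was called, and cyclin D1 (CCND1) stood at 172 against 206 CPM and cyclin D2 (CCND2) at 115 against 150 CPM. Of 12 arrest and p53 target genes, 1 was called higher, the CDK inhibitor gene CDKN2C at 41.2 against 25.8 CPM, 1.59-fold, and the median fold was 1.06. Cytosolic ribosomal protein genes stood at 150100 against 150770 CPM in sum, and none of the 53 tested was called.

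Among genes at 10 CPM or more, the largest fold belonged to a gene that the files and the gene name table give only by its identifier. ENSSSCG00000036080 stood at 1742 CPM (interval 1711 to 1773) in linker-histone-high cells and 289 CPM (284 to 294) in the others, 6.02-fold, at a median of 21 UMIs and 1 UMI per cell. It was seen in most of the chosen cells (interval of the share, 93.0% to 96.6%) and in 53.1% of the others. It was thus present at more UMIs than the 2 genes of the rule together. Over 4 bins of 155 linker-histone-high cells, from the lowest to the highest linker histone share, it stood at 1552, 1585, 1844 and 1995 CPM, and in kept cells with no linker histone transcript at 119 CPM. A further gene known only by its identifier, ENSSSCG00000026302, stood at 132 against 45.4 CPM, 2.90-fold.

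The levels of the other replication-dependent histones and of G1/S genes were higher at a higher linker histone share below the threshold as well as above it. Below it the order rests on few molecules, as 944 of these cells held 1 UMI of the 2 genes. The median depth was 8793.5 UMIs in cells with none, 10909 with a low share and 9373 with a middle share. What part depth has in this order was not tested. In the 3172 kept cells with no UMI of HIST1H1D or HIST1H1E, the other replication-dependent histones summed to 33.5 CPM. In the 689 and 688 cells with a low and a middle share they summed to 71.0 and 124 CPM, and in the 4 bins of linker-histone-high cells to 214, 230, 282 and 323 CPM, so that the highest bin was above the lowest by more than the intervals. G1/S genes summed to 554, 816 and 928 CPM in the cells below the threshold and to between 1199 and 1386 CPM in the bins above it. The endothelial list, without PECAM1, summed to 2676 CPM in cells with no linker histone transcript and to between 2304 and 2354 CPM in those bins. CDC20 stood at 78.9 CPM in cells with no linker histone transcript, 100.4 CPM in those with a middle share and between 76.3 and 86.6 CPM in the bins above it, and thus showed no such order.

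**Figure D2:**
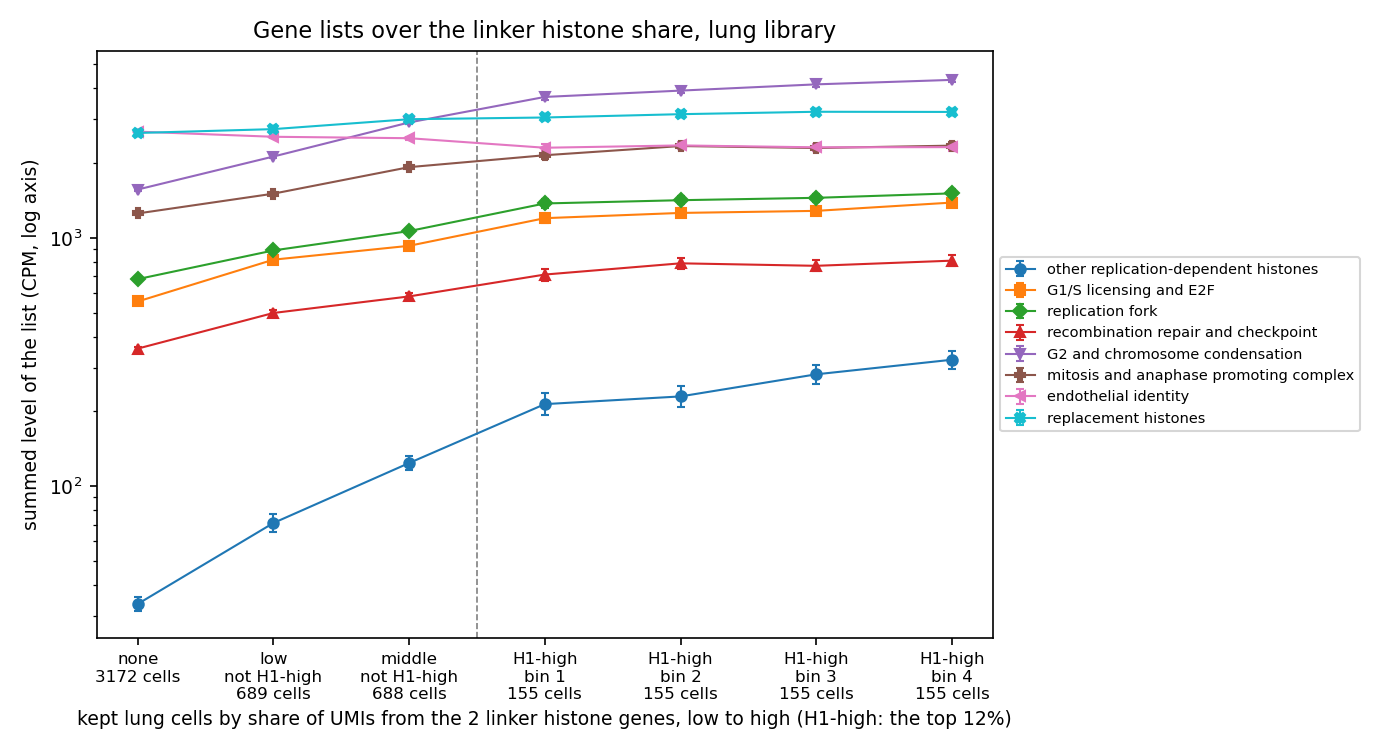
Summed level in CPM (log axis) of 8 gene lists in kept lung cells ordered by the share of UMIs from HIST1H1D and HIST1H1E: 3172 cells with none, 689 and 688 cells with a low and a middle share, and 4 equal bins of the 620 linker-histone-high cells (H1-high, right of the dashed line). Bars are exact Poisson 95% intervals. From cells with none to the highest bin, the other replication-dependent histones run from 33.5 to 323 CPM. Replacement histones run from 2642 to 3212 CPM and the endothelial list from 2676 to 2317 CPM, smaller changes in proportion.

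To place the chosen cells on the cell cycle, all kept cells were divided at the medians of the share of UMIs from G1/S genes and from G2 and mitosis genes. Of the 620 linker-histone-high cells, 535 (86.3%, interval 83.3 to 88.9) were above both medians, and they made up 28.9% of the 1852 kept cells in that range. G2 and mitosis genes alone were above the median in 46 chosen cells, G1/S genes alone in 19 and neither in 20, which were 6.28%, 2.60% and 1.08% of the cells of those ranges. When every cell was thinned to 6300 UMIs, with 516 shallower cells left out (46 of them chosen), 83.8% of the chosen cells were above both medians. When the choice itself was made after thinning, 78.7% were, and 443 of the 558 cells so chosen were the same. Near a median the place of a cell is uncertain: 371 kept cells lay within 10% of the G1/S median and 257 within 10% of the other.

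On a finer grid, with 5 equal bins of cells on each axis, linker-histone-high cells were most frequent in the highest bin of G1/S genes. There they made up 47.2% (interval 40.5 to 54.1) of the cells also in bin 5, the highest, of G2 and mitosis genes and 46.2% (41.2 to 51.4) of those in bin 4. In bin 3 of G2 and mitosis genes they made up 13.4% (9.97 to 17.6), and in bin 2 they made up 3.45% (0.717 to 9.75). In the lowest bin of both they made up 1.07%. In the highest bin of either axis, the share thus grew along the other axis. In the lowest bin of G2 and mitosis genes it was 1.85% or less in every bin of G1/S genes. There, bin 5 of G1/S genes held 9 cells with 0 chosen (interval 0 to 33.6%), and bin 4 held 54 cells (0.0469 to 9.89). Cells with G1/S transcripts but few of G2 were seldom linker-histone-high, though such cells were few.

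**Figure D3:**
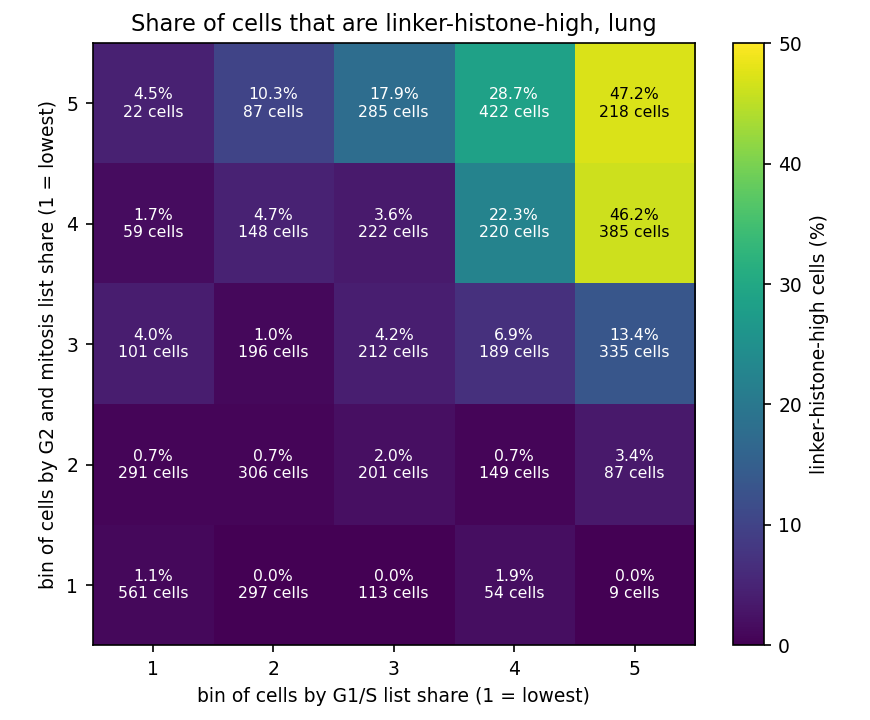
Share of kept lung cells that are linker-histone-high (%, colour and number) on a grid of 5 by 5 bins by the share of UMIs from G1/S genes (x axis) and from G2 and mitosis genes (y axis), with the number of cells in each square. The squares at the top right hold 46.2% and 47.2%, and those in the bottom row hold 1.85% or less, the last of them from 9 cells.

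The chosen cells differed among themselves along the same ranges. H2AC20 stood at 165 CPM (interval 155 to 175) in the 535 linker-histone-high cells above both medians and at 142 CPM (111 to 180) in the 46 with G2 and mitosis genes alone. It stood at 52.6 CPM (24.0 to 99.8) in the 19 with G1/S genes alone, and the 20 in neither range held 1 UMI of it, 7.15 CPM. The other kept cells of the same 4 ranges had H2AC20 at 53.8, 17.6, 20.5 and 12.4 CPM, in the same order. Above both medians, and with G2 and mitosis genes alone, the chosen cells were thus above the other cells of their range by more than the intervals. With G1/S genes alone, where the chosen cells held 9 UMIs, the interval overlapped that of the other cells (17.3 to 24.2), and in neither range no difference was detectable at this depth. The 20 cells in neither range had a median of 6951.5 UMIs and 2 linker histone UMIs, against 11633 UMIs and 5 in those above both medians. Likewise, the 31 chosen cells with HIST1H1E alone had a median of 3770 UMIs, and 58.1% of them (39.1 to 75.5) were above both medians, against 87.8% (84.6 to 90.6) of the 477 with both genes and 87.5% (79.9 to 93.0) of the 112 with HIST1H1D alone.

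Over all kept cells, chosen ones included, the levels of the 2 genes of the rule are given by range as a description. HIST1H1D stood at 127 CPM (interval 122 to 132) in cells above both medians, 44.0 CPM with G2 and mitosis genes alone, 27.2 CPM with G1/S genes alone and 12.6 CPM (10.965 to 14.4) in neither. HIST1H1E stood at 63.0 CPM (59.6 to 66.5), 26.5, 16.5 and 14.5 CPM (12.8 to 16.4).

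Linker-histone-high cells were set beside sets of the same size chosen by cycle genes. Of the 620 kept cells with the highest share of G1/S genes, 213 (34.4%) were also linker-histone-high. Of the 620 highest in G2 genes 195 (31.5%) were, and of the 620 highest in mitosis genes 125 (20.2%). Of genes on none of those lists, PCNA stood at 277 CPM in the G1/S set, 216 CPM in linker-histone-high cells, 125 CPM in the G2 set and 100.8 CPM in the mitosis set. H2AC20 stood at 111, 158, 83.3 and 61.8 CPM in the same order, and was highest in linker-histone-high cells. HIST1H2AC stood at 32.4, 37.8, 15.7 and 10.7 CPM, and FBXO5 at 62.2, 66.9, 41.8 and 30.8 CPM, with overlapping intervals between the first 2 sets for both genes. TK1 stood at 151, 167, 152 and 135 CPM. CLSPN at 128, 104, 76.4 and 68.9 CPM and BRCA1 at 103, 89.96, 62.0 and 56.7 CPM were highest in the G1/S set. Of genes on the lists, which the choice of the other sets favours, CDC6 stood at 24.7, 10.7, 2.81 and 2.91 CPM and CCNB1 at 45.6, 91.1, 210.3 and 248 CPM. Linker-histone-high cells lay between the G1/S set and the G2 set for both. All kept cells together, with CCNB1 at 76.2 CPM, also lay between those sets for that gene. Since the choice of the sets favours this order, it does not place the linker-histone-high cells.

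**Figure D4:**
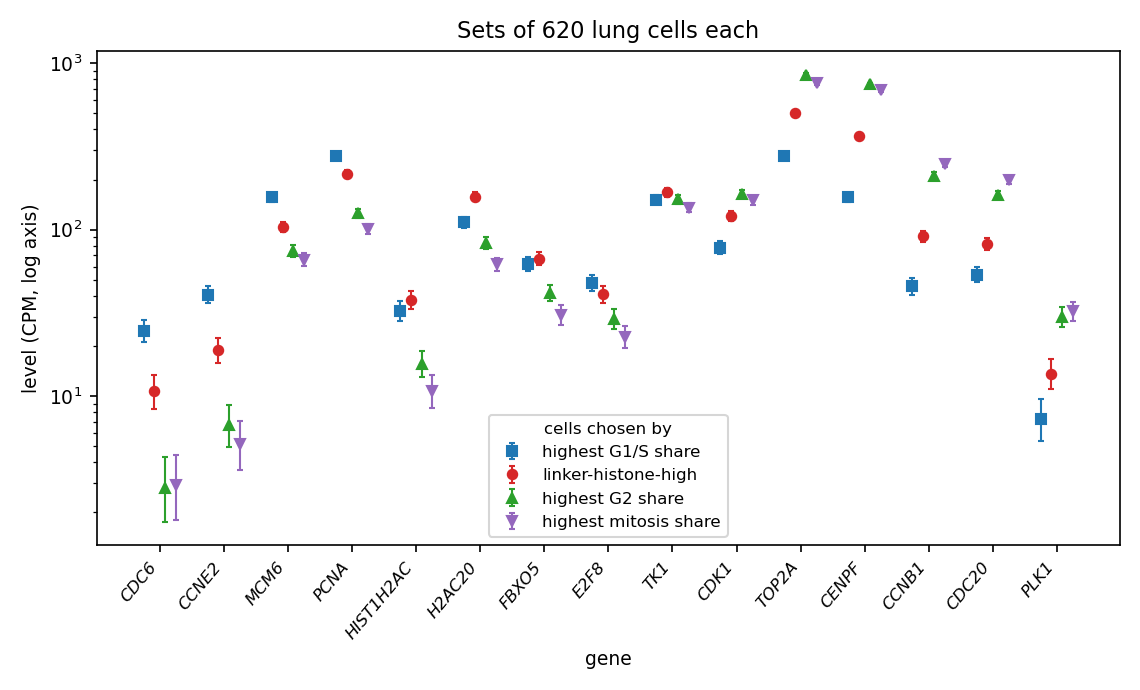
Level in CPM (log axis) of 15 genes in 4 sets of 620 kept lung cells each: linker-histone-high cells (circles) and the cells with the highest share of G1/S genes (squares), G2 genes (upward triangles) and mitosis genes (downward triangles). Bars are exact Poisson 95% intervals. CDC6, CCNE2, MCM6 and E2F8, CDK1, TOP2A and CENPF, and CCNB1, CDC20 and PLK1 are on the lists that chose the other sets. The order of the sets for these genes is favoured by that choice.

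Fewer genes were called once place on the cycle was taken into account. What part that place has in the differences was not tested. When the other cells were weighted to fall on this grid of bins as the linker-histone-high cells do, an alternative chosen after seeing the data, 14 genes were higher by 1.5-fold or more and 23 lower, in place of 288 and 89. No gene of the G1/S, replication fork, repair or mitosis lists was then among them, and of the G2 list CKAP2L was, 1.64-fold higher. Some lay just short of the limit, with the fork gene DNA2 at 1.495-fold. The mitosis genes CCNB1, CDC20 and KIF20A had folds of 0.669, 0.672 and 0.682. The median fold was 1.16 for the fork list and 0.91 for the mitosis list. Since the grid was built from the G1/S, G2 and mitosis lists, little difference in those lists as a whole follows from the weighting. The histone genes kept a difference under this weighting. H2AC20 stood at 158 against 62.5 CPM, 2.53-fold, HIST1H2AC at 37.8 against 16.3 CPM, 2.33-fold, and H2AC11 at 34.3 against 16.2 CPM, 2.11-fold. HIST1H2AC and H2AC11 had reached the minimum only through the chosen cells. Cells of 1 bin can still differ in their place on the cycle, and whether a difference would remain on a finer grid was not tested. ENSSSCG00000036080 stood at 1742 against 813 CPM, 2.14-fold, and FBXO5 at 66.9 against 39.2 CPM, 1.71-fold. The p107 gene RBL1 stood at 39.8 against 26.5 CPM and CHAC1, a glutathione-degrading enzyme, at 35.4 against 22.2 CPM, 1.59-fold. The other 6 were CXCL10, RSAD2, IFIT1 and IFIT2 of the interferon response, MGP, an inhibitor of calcification, and a gene known only by its identifier. For each of these 6, a single chosen cell held between 22.1% and 42.9% of the UMIs of all linker-histone-high cells, whereas the top cell held 0.71% of the UMIs of H2AC20.

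Lower in linker-histone-high cells were genes of diverse function. SOX18, a transcription factor of ECs, was the 1 gene of 18 on the endothelial list that was called lower, at 51.6 CPM (interval 46.4 to 57.1) against 98.3 CPM (95.4 to 101.2), a fold of 0.52, and it was seen in 35.6% of chosen cells against 52.5% of the others. The list's median fold was 0.88, with ERG at 1.05 and ICAM2 at 1.04 the only folds above 1. SLPI, a secreted protease inhibitor, stood at 51.4 CPM (46.3 to 57.0) against 113 CPM, a fold of 0.45, and was seen in 21.3% against 32.4% of cells. CRYAB, a small heat shock protein, stood at 31.9 CPM (27.9 to 36.3) against 59.6 CPM, a fold of 0.54. GJA5, the gap junction protein connexin 40 of arterial ECs, was on no list. It stood at 112 against 196 CPM, a fold of 0.57, and was seen in 57.1% against 68.3% of cells.

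Some of these genes were no longer called lower under the same weighting. With the others weighted to the same place, 6 of the 15 genes with the lowest folds were still called lower and 9 were not. SOX18 stood at 51.6 against 84.0 CPM, a fold of 0.61, and was called. SLPI stood at 51.4 against 60.7 CPM, a fold of 0.85, CRYAB at 31.9 against 42.6 CPM, a fold of 0.75, and GJA5 at 112 against 163 CPM, a fold of 0.69, and none of these was. In the sets of 620 cells highest in G1/S, G2 and mitosis genes SLPI stood at 49.4, 47.2 and 44.5 CPM, each with an interval that overlapped that of linker-histone-high cells. SOX18 stood at 65.6, 83.9 and 97.2 CPM in those sets, all above its level in linker-histone-high cells.

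The remaining genes with the lowest folds were at low levels. TMEM40, a membrane protein of unclear role, stood at 13.5 against 27.6 CPM and the adaptor LAT2 at 13.2 against 25.1 CPM. RND2, a small GTPase, stood at 7.87 against 15.4 CPM, and PIK3R3, a regulatory subunit of phosphoinositide 3-kinase, at 7.03 against 13.8 CPM. JARID2, a partner of Polycomb repressive complex 2, stood at 5.48 against 12.4 CPM, the lowest fold of these, 0.44. KANK3, P2RX7, PPFIA3, CASTOR1, MTSS1, ANKRD37 and ZNF12 had folds between 0.46 and 0.56, each from 36 to 80 UMIs in linker-histone-high cells. Among 12 interferon response genes 1 was called higher (CXCL10) and 2 lower (MX2 at 29.5 against 44.6 CPM and IRF7 at 14.6 against 22.6 CPM). The chemokine and adhesion list gave 2 of 11 called lower, SLPI and the complement factor gene CFD (37.7 against 61.6 CPM), while VCAM1, an adhesion protein for leukocytes, stood at 3381 against 3208 CPM. Of 14 genes of cholesterol synthesis and uptake, 1 was called lower, INSIG1 at 19.0 against 29.1 CPM. None of the 8 immediate early genes was called.

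The aorta library, which the choice of these cells did not use, was read by the same rule without the upper limit on genes, as most of its cells lie above that limit. It gave 399 kept cells, of which 48 were linker-histone-high. Their median was 64394 UMIs and 37 linker histone UMIs per cell, against 48486 and 2 in the other 351, so that each cell was placed on far more molecules than in the lung, while cells were few. Of 7572 genes tested there, 478 were called higher, 6.31%, and 332 lower, 4.38%, and 49 of the 478 were under 10 CPM in the other cells. Of the 7163 genes tested in both libraries, 277 were called higher in the lung and 435 in the aorta, with 251 in common, 90.6% of the lung genes and 57.7% of the aorta genes. For lower genes the counts were 73 and 268, with 41 in common, 56.2% and 15.3%, and 1 gene was called in opposite directions. All 48 aorta cells were above both medians of cycle genes in that library (interval 92.6% to 100%), where they made up 28.4% (21.7 to 35.8) of cells.

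All 15 genes with the highest folds in the lung were called higher in the aorta too, but the minimum favoured some of these calls. HIST1H2AC, H2AC11, FAM83D and INCENP were under 10 CPM in the other cells of both libraries, so the minimum required them to be higher. DNA2, ESCO2 and CDCA2 had reached the minimum in the lung only through the chosen cells. H2AC20 stood at 167 CPM (interval 153 to 182) against 26.0 CPM there, 6.41-fold, HIST1H2AC at 41.0 against 7.72 CPM, 5.31-fold, and H2AC11 at 43.2 against 7.85 CPM, 5.51-fold. FBXO5 stood at 100.95 against 21.3 CPM, 4.73-fold, E2F8 at 68.1 against 13.4 CPM, 5.08-fold, and TOP2A at 500.4 against 126 CPM, 3.96-fold. FAM83D had the smallest fold of the 15, at 19.9 against 8.93 CPM, 2.23-fold. Of the genes tested there, ENSSSCG00000036080 again had the highest fold, at 1682 against 200.4 CPM, 8.39-fold. TK1 was 2.48-fold, BRCA1 2.65-fold and CLSPN 2.59-fold higher. CDC20 was again near 1, at 1.06, and CCNB1 was 1.19-fold higher, again below the limit for a call. The G1/S list had 23 of 23 genes called and a median fold of 2.45. For the replication fork list these were 20 of 23 and 2.47, and for the repair list 16 of 19 and 2.33. The G2 list had 22 of 25 and 2.08, and the mitosis list 13 of 20 and 1.84. Without genes under 10 CPM in the other cells, 22 of 22 G1/S, 18 of 21 fork and 12 of 14 repair genes were called. The G2 and mitosis counts did not change. Over all genes tested in the aorta, 6.31% were called higher and the median fold was 1.01.

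Of the 15 genes with the lowest folds in the lung, 11 could be tested in the aorta and 10 were called lower there. SLPI stood at 77.0 CPM (interval 67.6 to 87.3) against 525 CPM, a fold of 0.15, SOX18 at 40.1 against 121 CPM, a fold of 0.33, and CRYAB at 191 against 347 CPM, a fold of 0.55. GJA5 stood at 107 against 246 CPM, a fold of 0.43. ZNF12 was the exception, at 10.1 against 14.8 CPM, a fold of 0.68. The leukocyte adhesion list gave 3 of 13 called lower, and the lowest fold of any gene tested was that of the cytokine gene CSF2 on that list, at 1.58 against 21.7 CPM from 5 UMIs in linker-histone-high cells. As depth and the number of cells differ between the libraries, their folds are given side by side and were not compared.

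**Figure D5:**
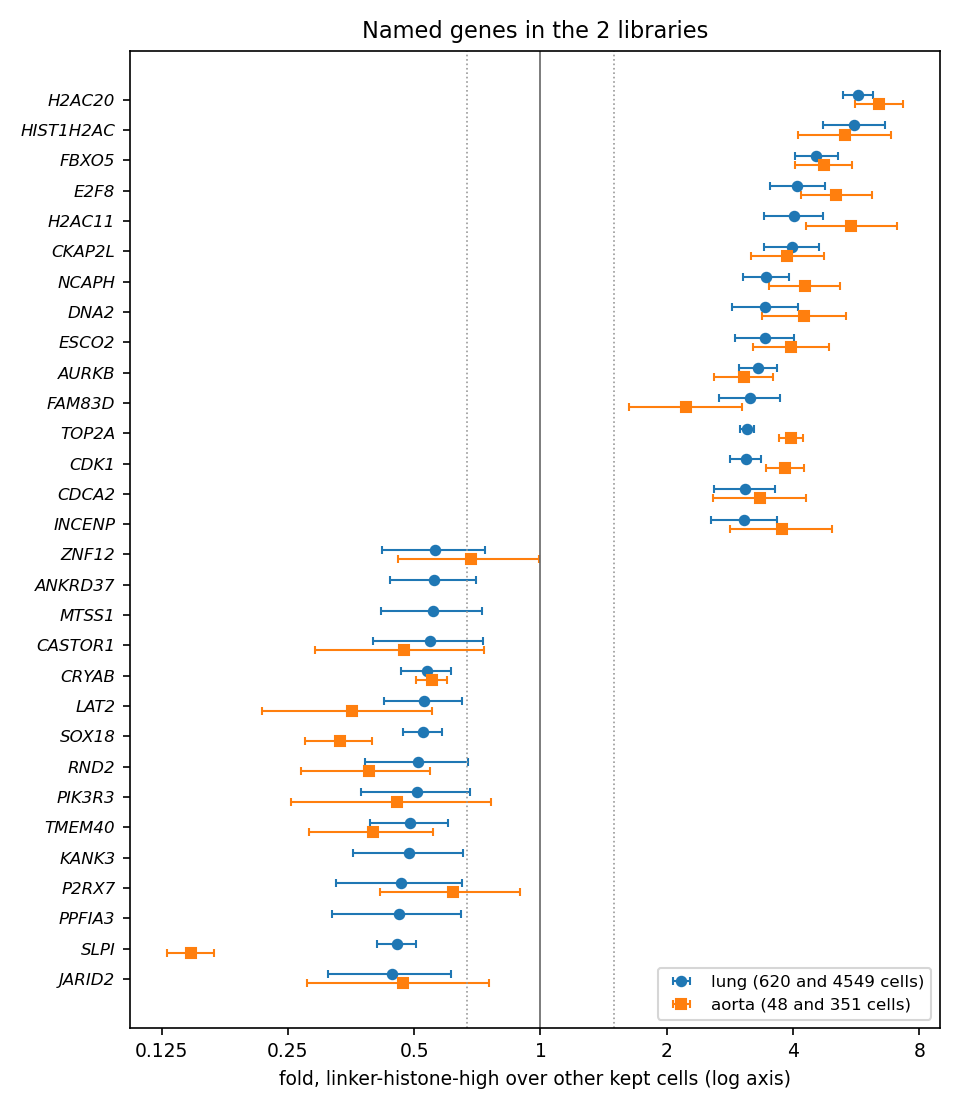
Fold of the CPM in linker-histone-high cells over that in other kept cells (log axis) for the 15 genes with the highest and the 15 with the lowest folds in the lung, in the lung (circles, 620 and 4549 cells) and the aorta (squares, 48 and 351 cells, shown where tested). Bars are exact 95% intervals for counting error, and dotted lines mark 1.5-fold either way. All 15 genes at the top are past 1.5-fold in both libraries, and the minimum of 10 CPM favoured the calls of some of them. SLPI lies lowest in the aorta at 0.15.

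Promoters of the called genes were then read for short motifs known from cell cycle genes, on both strands, from 250 bases before to 50 bases after the start of the gene in RefSeq on Sscrofa11.1. The motif CCAAT, which NF-Y binds, was in 56.1% of the 264 promoters found for the genes called higher, against 36.9% of those of all genes tested, 35.1% of those of genes called lower and 35.4% of all 19534 promoters. TTTGAA, the letters of the cell cycle genes homology region, was in 22.3%, against 11.3%, 11.7% and 14.0%. TTCCCGC or TTCGCGC, forms of the E2F site, was in 28.0%, against 5.19% for genes called lower, 8.96% of all promoters and 855 of the 6591 promoters of genes tested. TATAAA was in 7.95% against 6.80% of genes tested and 10.9% of all promoters. AAACACA, part of a box found before linker histone genes, was in 3.03% of promoters of genes called higher, 3.26% of those of all genes tested and 4.87% of all promoters. A match is a string of letters and does not show that a factor binds.

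The promoters of 4 genes are shown because they hold these motifs in different mixtures: the H1.3-like linker histone gene, TOP2A and CDK1, both among the 15 genes with the highest folds, and TK1. They lie at chr7:20882258-20882557 (LOC595122, minus strand), chr12:22001050-22001349 (TOP2A, plus strand), chr14:64233695-64233994 (CDK1, plus strand) and chr12:3785747-3786046 (TK1, plus strand). Each is written 5′ to 3′ on the strand of the gene, and capitals mark every match to the motifs named above, on either strand.
LOC595122: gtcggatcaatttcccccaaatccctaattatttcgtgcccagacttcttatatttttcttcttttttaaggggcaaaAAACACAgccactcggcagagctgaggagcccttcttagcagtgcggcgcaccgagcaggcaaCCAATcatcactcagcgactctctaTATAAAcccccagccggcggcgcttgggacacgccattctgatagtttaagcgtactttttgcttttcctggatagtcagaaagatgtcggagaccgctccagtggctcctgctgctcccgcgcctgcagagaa
TOP2A: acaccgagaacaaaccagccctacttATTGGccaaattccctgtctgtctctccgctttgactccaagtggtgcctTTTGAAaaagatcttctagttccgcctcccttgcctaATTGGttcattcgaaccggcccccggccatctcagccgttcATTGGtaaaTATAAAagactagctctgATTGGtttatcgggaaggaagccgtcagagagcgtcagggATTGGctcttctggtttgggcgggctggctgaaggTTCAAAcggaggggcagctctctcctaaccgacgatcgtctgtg
CDK1: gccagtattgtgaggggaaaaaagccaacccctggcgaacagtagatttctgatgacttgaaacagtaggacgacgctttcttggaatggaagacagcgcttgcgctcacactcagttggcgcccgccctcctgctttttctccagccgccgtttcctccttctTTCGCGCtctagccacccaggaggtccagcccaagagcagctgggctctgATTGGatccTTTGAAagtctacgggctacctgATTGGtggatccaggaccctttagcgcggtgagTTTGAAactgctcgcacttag
TK1: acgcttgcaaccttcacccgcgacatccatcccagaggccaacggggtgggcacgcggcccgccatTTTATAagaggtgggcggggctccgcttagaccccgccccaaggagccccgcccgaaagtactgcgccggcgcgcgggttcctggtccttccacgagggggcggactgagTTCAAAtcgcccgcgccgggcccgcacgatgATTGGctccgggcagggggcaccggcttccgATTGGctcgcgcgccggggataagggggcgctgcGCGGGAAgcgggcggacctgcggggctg
The linker histone promoter held 1 AAACACA, 1 CCAAT and 1 TATAAA, and neither TTTGAA nor the E2F forms. TOP2A held 5 CCAAT, 2 TTTGAA and 1 TATAAA. CDK1 held 2 CCAAT, 2 TTTGAA and 1 TTCGCGC, and TK1 held 2 CCAAT, 1 TTTGAA, 1 TTCCCGC and 1 TATAAA. FBXO5, NCAPH and BRCA1, which were also higher in linker-histone-high cells, held none of these motifs in this window.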

How the data were processed

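The authors deposited counts, whole numbers of UMIs for each gene in each cell of the 2 libraries, without normalization or limits on cells. Per the submitters' processing notes they come from Cell Ranger 3.0.2, and the methods name Sscrofa11.1 as the reference. The lung library held 57213236 UMIs in 5946 cells (median 9326 per cell) and the aorta library 46080859 UMIs in 1185 cells (median 45594). Of 22804 genes, 6797 are known only by an identifier, after a table of gene names had been used. A symbol that occurs more than once was kept as its identifiers.

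Cells were kept and chosen by the limits given above, with ties in file order. The members and all gene lists were chosen with earlier results of these data known, and support nothing on their own. UMIs were summed over cells as CPM. Genes at 10 CPM or more over kept cells were tested for size, and a fold of 1.5 or more was called. The genes named are the 15 with the highest and the 15 with the lowest fold among genes with a symbol, at a minimum of 10 CPM and found in 10% or more of cells in the higher set, other than the 5 genes of the rule. Genes of the fixed lists that show the range of each list, and all histone genes, are named too. Some genes of the repair list are not reported here by name. FBXO5, CXCL10 and the other genes of the comparison weighted by cycle place, SOX18 beside it, GJA5, and the genes known only by an identifier were picked after their values were seen. Exact Poisson, Clopper-Pearson and conditional binomial intervals at 95% were computed, and for counts of 0 an upper limit of 3 counts is given. Thinned counts were drawn without replacement to 6300 UMIs per cell, the 10th percentile rounded down, with a fixed seed. The fold step was tested on simulated counts. Tools were Python 3.11.15, numpy 2.4.6, scipy 1.17.1, pandas 2.3.3 and matplotlib 3.10.9. Genome sequence and gene places were read from RefSeq on Sscrofa11.1, by symbol, whereas the counts rest on Ensembl gene models. A total of 17 alternatives of the choice of cells, depth, scaling and filter were run for the lung.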

Additional observations from a re-analysis of the deposited data

Results flagged for a closer look

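The rule left 777 lung cells out, and these too held linker histone transcripts. HIST1H1D and HIST1H1E together stood there at 84.1 CPM (interval 76.8 to 92.0), from 484 UMIs, and a count of 0 allows at most 0.521 CPM. This signal was flagged because it lies in cells that no comparison of the report uses. Of those cells, 52 (6.69%, 5.04 to 8.68) had a share of these UMIs at or above that of the last linker-histone-high cell. Among them, the 396 cells with more than 2 UMIs of COL1A1 and COL1A2 had 89.6 CPM and the 650 with fewer than 3 UMIs of PECAM1 had 84.0 CPM, and some cells fell under both limits. Each condition had 1 library, so no sample was compared with others of its group.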

How the results depend on the processing

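The limits of these data are the small numbers of molecules that chose each lung cell, the depth, and 1 library a condition. Of 142 counts and shares recomputed under the alternatives, 113 stayed within their limits. The limit was 1.5 times the main value for counts, and the main interval for the share of chosen cells above both medians. Of 510 recomputed folds of named genes, 91 moved by more than their interval and 0 changed direction. A higher minimum, or none, cannot move these folds. The named genes were also picked for extreme folds in the same data, so a change of direction was unlikely from the start. Genes called higher (288) and lower (89) became 147 and 12 with cells chosen by HIST1H1E alone, 50 and 13 at a minimum of 50 CPM, and 1501 and 1063 with no minimum, under which 2 endothelial genes were called lower. Genes called lower numbered 136 with the top 6% of cells and 54 with the top 20%. With HIST1H1E alone, 7 G1/S, 9 repair, 7 mitosis and 0 endothelial genes were called, and 63.4% of the chosen cells were above both cycle medians. At 50 CPM, where fewer genes could be tested, the calls were 4 G1/S, 2 replication fork, 0 repair, 13 G2 and 6 mitosis genes. Thinning before the choice gave 78.7% above both medians. With the other cells weighted by place on the cycle, added after seeing the data, 14 genes were called higher and 23 lower, with 0 G1/S, 0 fork, 0 repair, 1 G2 and 0 mitosis genes. In the aorta, 1548 genes were called higher under the lung's limit on genes, with 9 chosen cells, and 1020 with cells thinned to the lung's depth, with 46. Apart from what the smaller sets and higher or lower minimum leave to test, the cause was not tested. The other alternatives, including HIST1H1D alone and chosen cells with 3 or more linker histone UMIs (also added after seeing the data), gave counts within 1.5 times. No paired analysis was possible because each condition had 1 library.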
